A study of Mus musculus with 3 samples.

Results

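The sarcomere genes described here are 10 named genes (Ttn, Myh3, Myh8, Acta1, Actc1, Tnnt1, Tnnc1, Mylpf, Des and Neb) out of 28953 genes listed in 3 single-cell count tables. They were listed by name as parts of the muscle sarcomere, with no threshold on a measured value. All 10 were found in every table, among 27755 genes listed for the D10 culture and for the E14.5 tail and 25936 genes listed for the D6 paraxial mesoderm (PM). For each gene, the unique molecular identifiers (UMIs, each 1 captured RNA molecule) were summed over the cells of every cluster code in every table and expressed as CPM (1e6 times the gene's UMIs over all UMIs of those cells). Attention was given to cluster code 5. Its leading genes include Myog, Myod1, Actc1, Neb and Ttn in the tail, and Actc1, Myh3 and Ttn beside the pluripotency-associated genes Trh and Pim2 in the culture.

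The study compared tendon cells made in a dish with tendon cells of the embryo. The D10 culture was derived from mouse embryonic stem cells (mESCs) carrying the ScxGFP tendon reporter. Cells had first been taken through embryoid bodies and PM with LDN-193189 (a BMP receptor inhibitor) and CHIR (a Wnt pathway activator), and then received TGFβ1, SAG (a hedgehog agonist) and FGF2. The D6 PM library came from the same kind of culture before TGFβ1, SAG and FGF2 were given, and the tail library came from cells of whole tails of mouse embryos at E14.5. The culture was taken whole, without sorting for the reporter, and dead cells were depleted before capture.

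The sarcomere is the contractile unit of striated muscle, in which thick filaments of myosin slide along thin filaments of actin. Troponin complexes on the thin filament make this sliding depend on calcium, titin (Ttn) spans from the Z-disc to the middle of the sarcomere, and nebulin (Neb) runs along the thin filament. In skeletal muscle the genes for these proteins are switched on as myoblasts withdraw from the cell cycle and fuse under the control of Myod1 and Myog, and embryonic muscle uses myosin and actin isoforms that adult muscle later replaces.

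Each group was 1 library, so no replicate error, test or p-value could be given. The libraries held 7821 culture cells (median 5622 UMIs per cell), 2052 tail cells (13512 UMIs) and 5954 D6 PM cells (8171 UMIs). Intervals below are exact 95% intervals for counting error only, and because UMIs of these genes lay together in few cells they are too narrow for the spread between cells. Culture and tail shared 4 cell barcodes, culture and D6 PM 10, and tail and D6 PM 3. The counts are of 3′ tags and are not corrected for transcript length, so levels were compared between cells and not between genes.

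Promoter sequences of 4 members are shown because they differ in the short motifs that striated muscle promoters are known for. RefSeq (GRCm38.p6) gave a window of 250 bases before to 50 bases after the transcription start for 9 of the 10 members, the exception being Neb. The windows lie for Acta1 at chr8:123894726-123895025 on the minus strand, Actc1 at chr2:114052826-114053125 on the minus strand, Mylpf at chr7:127211358-127211657 on the plus strand and Des at chr1:75360042-75360341 on the plus strand. Capitals mark CAGCTG (a palindromic E-box of the kind that MyoD family factors bind), the CArG box (the palindromic 10-base motif of serum response factor) and TATAAA on the strand of the gene, in sequences written 5′ to 3′.
Acta1: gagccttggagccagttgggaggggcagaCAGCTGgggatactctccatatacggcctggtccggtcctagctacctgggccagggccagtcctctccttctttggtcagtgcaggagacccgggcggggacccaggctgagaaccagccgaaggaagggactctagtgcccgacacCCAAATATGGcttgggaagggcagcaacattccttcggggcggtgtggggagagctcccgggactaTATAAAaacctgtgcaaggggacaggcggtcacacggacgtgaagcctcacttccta
Actc1: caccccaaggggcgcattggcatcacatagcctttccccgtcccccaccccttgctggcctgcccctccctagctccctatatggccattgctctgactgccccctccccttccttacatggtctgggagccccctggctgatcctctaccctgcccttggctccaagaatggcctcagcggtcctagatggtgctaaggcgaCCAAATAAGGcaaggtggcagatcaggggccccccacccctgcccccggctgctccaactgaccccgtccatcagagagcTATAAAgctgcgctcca
Mylpf: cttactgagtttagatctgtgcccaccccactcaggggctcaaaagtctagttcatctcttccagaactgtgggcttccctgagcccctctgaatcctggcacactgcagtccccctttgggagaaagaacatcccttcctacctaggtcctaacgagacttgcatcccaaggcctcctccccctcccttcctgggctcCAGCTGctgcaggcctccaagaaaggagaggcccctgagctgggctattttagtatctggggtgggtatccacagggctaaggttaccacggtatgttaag
Des: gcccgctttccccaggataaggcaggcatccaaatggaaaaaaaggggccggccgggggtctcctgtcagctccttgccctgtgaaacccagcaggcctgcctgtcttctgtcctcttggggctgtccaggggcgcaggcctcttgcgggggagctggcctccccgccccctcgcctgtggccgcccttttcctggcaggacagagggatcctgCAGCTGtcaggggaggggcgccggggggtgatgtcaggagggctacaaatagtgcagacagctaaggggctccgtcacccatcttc
CAGCTG was present in 3 of the 9 windows (Acta1, Mylpf and Des) and in 16.3% of 32851 mouse promoter windows of the same length. The CArG box was present in 2 of 9 (Acta1 and Actc1) and in 1.63% of all windows, and TATAAA in 4 of 9 (Myh3, Acta1, Actc1 and Tnnt1) and in 8.32%. TATAAA began at base 222 of the window in Myh3, 221 in Tnnt1, 244 in Acta1 and 284 in Actc1. In Actc1 it thus lay after the annotated start, which follows the first 250 bases. CAGGTG or its reverse complement CACCTG was found in Ttn and Tnnt1 and in 20.2% of all windows. The searched motifs do not overlap each other in these windows. Such a match is a description of the letters and not evidence of binding.

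Across the 30 cluster codes with at least 30 cells, each of the 10 sarcomere genes had its highest level in code 5 of the E14.5 tail. Summed over the 10 genes, that code held 8963 CPM (8838 to 9090), against 887 CPM (864 to 910) in code 5 of the D10 culture and 461 CPM in code 4 of the D6 PM. Above culture code 5 in this sum lay also D6 PM code 2 (1171 CPM, mostly Mylpf) and tail code 7 (1050 CPM). The 121 cells of tail code 5 were 5.90% of the tail library and carried 92.7% of its sarcomere UMIs. The 556 cells of culture code 5 were 7.11% of their library and carried 49.6%, so the other portion lay outside code 5. In code 11 of the tail and of the culture, endothelial by its leading genes and not expected to carry a sarcomere, the summed level was 28.2 CPM and 36.4 CPM in that order.

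**Figure D1:**
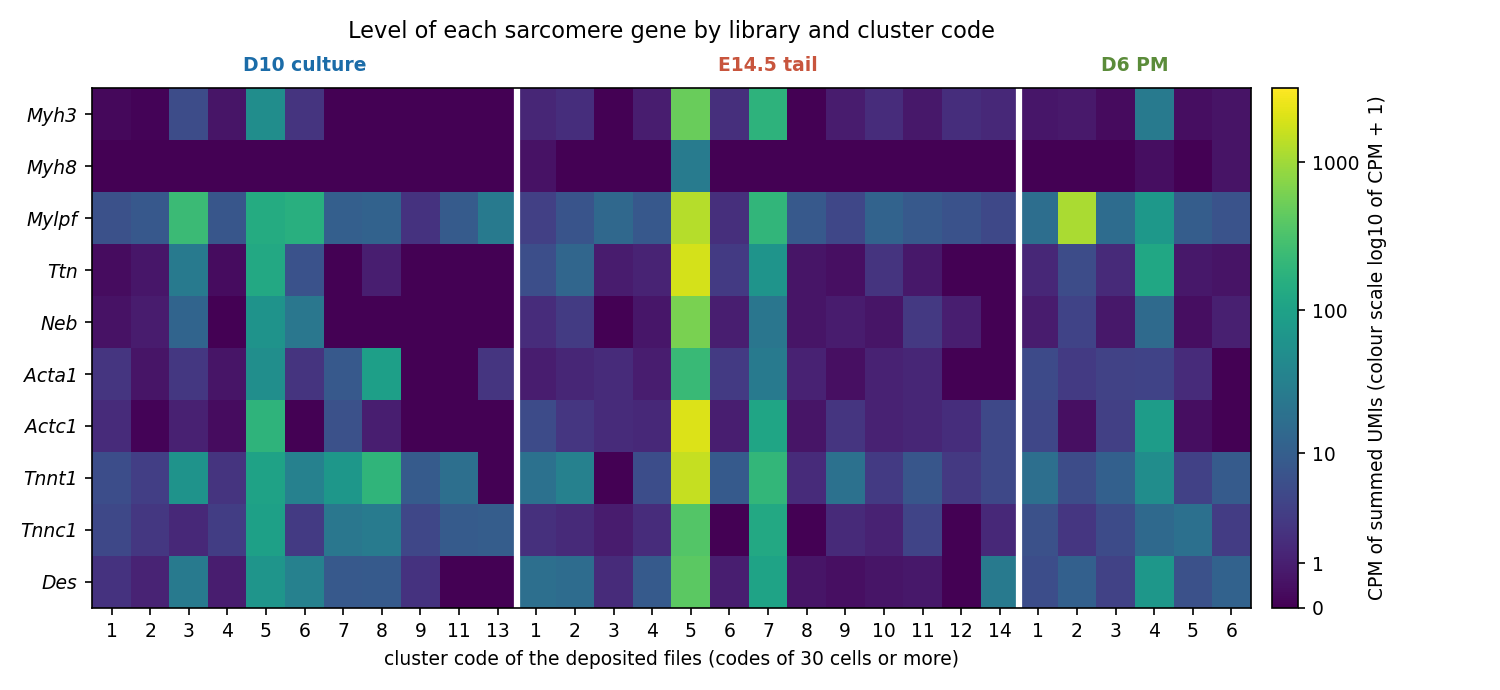
Heat map of the level of each sarcomere gene (CPM, log colour scale) in each of the 30 cluster codes with at least 30 cells, ordered by library. Code 5 of the tail has the highest value for every gene, with 8963 CPM summed over the 10 genes, while Mylpf also stands high in code 2 of D6 PM at 1139 CPM and in code 3 of the culture at 244 CPM.

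The second place in this order differed between the genes. For Ttn it was shared by culture code 5 (131 CPM) and D6 PM code 4 (122 CPM), whose intervals overlapped. For Actc1 and Neb it was culture code 5, and for Myh3 it was tail code 7 (179 CPM), a code of shallow cells (median 1881 UMIs) in which 2 of 86 cells carried 73.9% of the sarcomere UMIs. Tail code 7 shared the place with the next code, by overlapping intervals, for Tnnt1 (206 CPM, with culture code 8 at 196 CPM), Tnnc1 (130 CPM, with culture code 5 at 97.6 CPM) and Des (108 CPM, with D6 PM code 4 at 70.4 CPM). For Acta1 it was culture code 8 (93.6 CPM), a code led by Gcg, Cltrn, Bpifa1 and Iapp, and for Mylpf it was D6 PM code 2. Myh8 was nearly restricted to tail code 5, where it reached 27.7 CPM (60 UMIs), against 0.528 CPM (1 UMI) in the next code. For culture and tail, the study clustered on components drawn from the most variable genes, and these members may have been among them. A code against the rest is therefore a description and not a test. The paper also states that culture cells were assigned to clusters of the tail by nearest neighbours.

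Code 5 was compared between tail and culture as a whole, although in the culture most of its cells held few or none of these genes. All 10 genes were at least 2-fold higher in the tail, where 20.1% of 10387 genes at 10 CPM or more were higher by that fold and 13.8% lower. Myh8 was one of the 10 and passed 10 CPM only through the tail (27.7 CPM, against 0 UMIs in the culture), so its call is no support. The median log2 ratio of the members was 3.29, against 0.05 over all genes compared, and the summed ratio was 10.1 (9.82 to 10.4). After every cell was thinned to 3000 UMIs the summed ratio was 5.35, and the ratios of Acta1 (1.95) and Tnnc1 (1.64) were no longer past 2-fold.

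Among the thick filament genes, Myh3, the embryonic myosin heavy chain, stood at 494 CPM in tail code 5 and 51.5 CPM in culture code 5, a ratio of 9.59 (8.49 to 10.9). Myh8, the perinatal heavy chain, had 60 UMIs in the tail and 0 in culture code 5. It was 61.7-fold higher when the culture is set to the limit of 3 counts, and its exact interval starts at 48.6. Mylpf, the regulatory light chain of fast muscle, stood at 1285 and 139 CPM, a ratio of 9.22 (8.56 to 9.94). All 3 components of the thick filament were thus higher in the tail, with Myh8 not detectable in culture code 5 at this depth.

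The giant filament proteins differed by a similar factor. Ttn stood at 1883 CPM in the tail and 131 CPM in the culture, a ratio of 14.4 (13.4 to 15.5), and Neb at 632 and 61.5 CPM, a ratio of 10.3 (9.19 to 11.5). Of the thin filament actins, Actc1, the cardiac alpha-actin that embryonic skeletal muscle also uses, stood at 2096 and 185 CPM, a ratio of 11.3 (10.6 to 12.1). Acta1, the skeletal alpha-actin, stood at 236 and 53.1 CPM, a ratio of 4.44 (3.87 to 5.10). Reads that mapped to several places were discarded before counting, and since the coding sequences of Acta1 and Actc1 are near-identical, the share lost from each is unknown and their levels are uncertain. The tail excess of Actc1 was thus larger than that of Acta1 in these counts.

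The troponins also differed from each other. Tnnt1, the slow skeletal troponin T that holds the complex on tropomyosin, stood at 1536 CPM in tail code 5 and 103 CPM in culture code 5, a ratio of 14.96 (13.8 to 16.3). Tnnc1, the slow and cardiac troponin C that binds calcium, stood at 364 and 97.6 CPM, a ratio of 3.73 (3.36 to 4.15). Des, the intermediate filament protein that ties myofibrils together at the Z-disc, stood at 409 and 65.6 CPM, a ratio of 6.23 (5.55 to 7.0). Tnnt1 and Ttn thus had the largest of the finite ratios and Tnnc1 and Acta1 the smallest. A level summed over a code cannot tell fewer expressing cells from less RNA per cell, so the genes were next counted cell by cell.

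In culture code 5 the sarcomere genes lay together in very few cells. Of 556 cells, 284 had a UMI of none of the 10 genes, 182 of 1 gene and 51 of 2 genes. A separate set of 24 cells (4.32%) had UMIs of 6 to 9 of the genes, and no cell had exactly 5. These 24 cells held 92.5% of the code's sarcomere UMIs, between 42 and 868 each with a median of 171, while no other cell of the code held more than 18. They are called sarcomere-rich cells here, defined as cells with UMIs of at least 5 of the 10 genes. The gap between 18 and 42 UMIs means that the threshold of 5 genes divided no continuous range in this library.

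The other 532 cells of culture code 5 held the sarcomere genes at a low level, with a UMI of at least 1 of them in 248 cells. These cells held Dnmt3b at 693 CPM, Trh at 527 CPM and Utf1 at 416 CPM, genes of the primed, epiblast-like pluripotent state. They also held the pluripotency gene Pou5f1 at 361 CPM. Dnmt3b, Utf1 and Pou5f1 had 0 UMIs in the 24 sarcomere-rich cells. Code 5 of the culture was therefore mixed, with the sarcomere set in 24 of its 556 cells. Summed over the 10 genes, the level was 30337 CPM in the sarcomere-rich cells and 68.6 CPM in the other cells. All 9 members that reached 10 CPM were at least 2-fold higher in the sarcomere-rich cells, where 24.2% of all genes were higher and 26.1% lower, but both sets were chosen by these same genes, so nothing is read from that count. The median depth was 7375 UMIs in the sarcomere-rich cells and 12832 in the others, and a doublet caller marked 0 of the 24, against 1 of the 44 sarcomere-rich cells of the tail and 2 of the 25 of D6 PM.

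In tail code 5 the genes were spread over more of the cells and along a continuous range. Of 121 cells, 44 (36.4%) were sarcomere-rich, and 11 of them had UMIs of all 10 genes. They held 94.9% of the code's sarcomere UMIs, between 5 and 2278 each with a median of 192.5. Another 13 cells had exactly 4 of the genes with 15 to 67 UMIs each, next to 15 cells with exactly 5, so that the threshold of 5 cut through a continuous distribution here. Cells with none of the genes numbered 37. All 10 members were 2-fold or more higher in the sarcomere-rich than in the other cells of this code, as the choice of cells requires (6.28% of all genes were higher and 18.4% lower). In D6 PM code 4, 25 of 700 cells (3.57%) were sarcomere-rich and held 76.7% of the sarcomere UMIs of that code, with 13 to 530 UMIs each and a median of 52.

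Depth differed between the libraries, so the shares were also taken after thinning each cell to 3000 UMIs and leaving out shallower cells (1157, 100 and 1006 cells of culture, tail and D6 PM). At that depth 27 of 109 cells of tail code 5 were sarcomere-rich (24.8%, 17.0 to 34.0), 21 of 531 cells of culture code 5 (3.95%, 2.46 to 5.98) and 9 of 606 cells of D6 PM code 4 (1.49%, 0.681 to 2.80). Only 2 thinned cells in any other code reached 5 genes, 1 in culture code 1 and 1 in D6 PM code 1. The share was 0 of 66 in the endothelial code 11 of the tail (median 18809 UMIs before thinning), for which 3 counts give a limit of 4.55% and the exact interval ends at 5.44%, and 0 of 47 in that of the culture (median 5157), with 6.38% and 7.55% in the same order. At full depth, sarcomere-rich cells of any code made up 28 of 7821 cells in the culture (0.358%), 48 of 2052 in the tail (2.34%) and 28 of 5954 in D6 PM (0.470%).

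Within the 24 sarcomere-rich cells of culture code 5, the lowest, median and highest level of Ttn was 498, 4048 and 10877 CPM, and every cell had at least 1 UMI. Actc1 ran from 821 over 6341 to 15802 CPM and was likewise present in every cell, as were Tnnt1 (512, 2616 and 8038 CPM) and Neb (249, 2059 and 4877 CPM). These 4 genes of the titin, nebulin and thin filament systems were thus detected in the whole set. The cells were chosen by detection of the 10 genes, so this follows in part from the choice. Myh3 had a UMI in 22 of the 24 cells with a median of 1366 CPM, Tnnc1 in 22 with 2540 CPM, Des in 22 with 1189 CPM and Mylpf in 21 with 2785 CPM. Acta1 was present in 16 of 24 cells, with a median of 466 CPM and a highest value of 7155 CPM, and Myh8 in none. Acta1 was therefore the most uneven of the 9 detected genes between these cells, with 8 cells at 0.

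The 44 sarcomere-rich cells of tail code 5 were more uneven. Tnnt1 was present in all 44 with a median of 2431 CPM, Des in 43 with 515 CPM, Actc1 in 42 with 2574 CPM, Ttn in 39 with 1626 CPM and Neb in 37 with 553 CPM. Mylpf was present in 30 cells with a median of 82.2 CPM but a highest value of 27585 CPM. Fewer of the tail cells held Acta1 (23 cells), Myh8 (21), Myh3 (20) and Tnnc1 (18), and the median of Myh3 and of Tnnc1 was 0. Myog, a regulator of terminal muscle differentiation that was not used to choose the cells, had a UMI in 24 of the 24 culture cells (1279 CPM when summed) and in 35 of the 44 tail cells (2596 CPM).

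**Figure D2:**
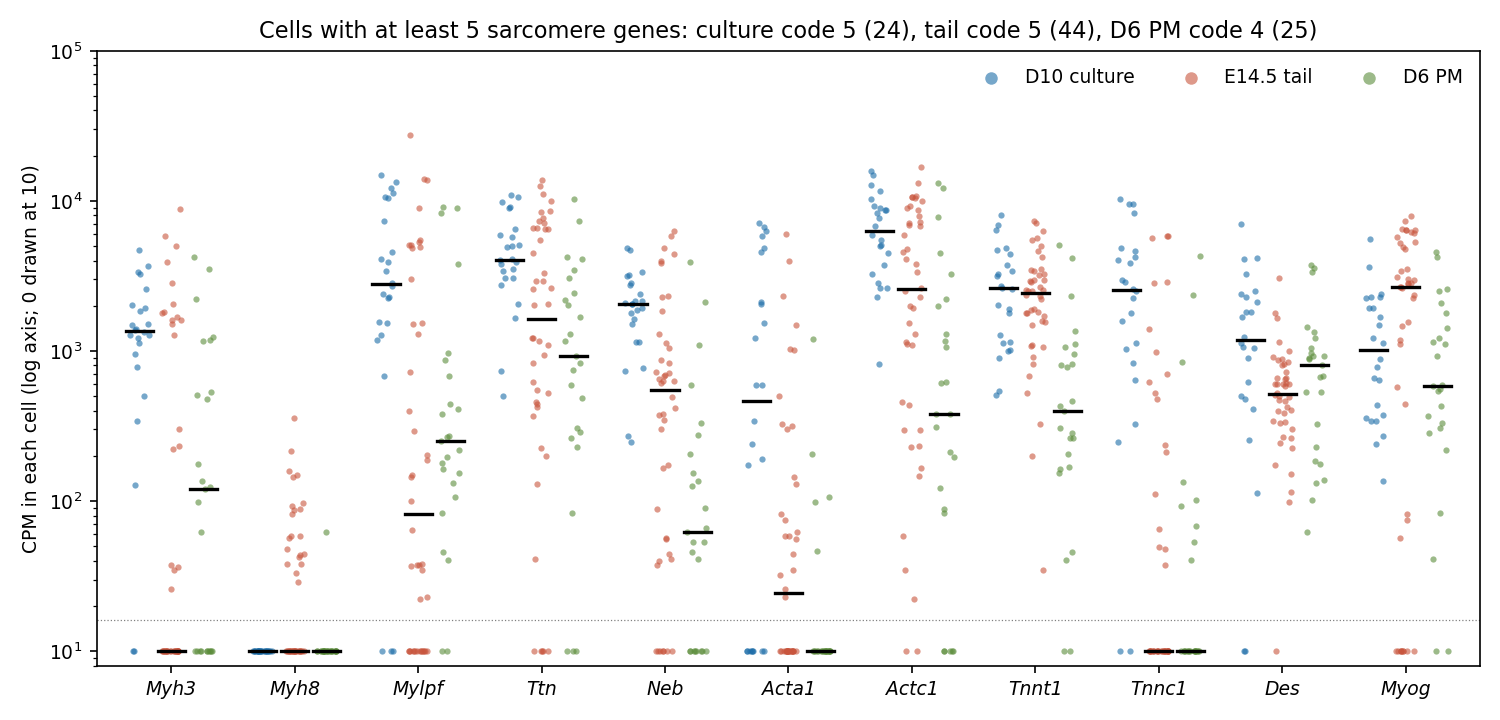
Level per cell (CPM, log axis, 0 drawn at 10) of each sarcomere gene and of Myog in the sarcomere-rich cells of culture code 5 (24 cells), tail code 5 (44 cells) and D6 PM code 4 (25 cells), with bars at the medians. The medians of Myh3 and Tnnc1 are 1366 and 2540 CPM in the culture and 0 in the tail, where single cells nevertheless reach 8760 CPM of Myh3.

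The direction of the tail to culture comparison was the opposite once only sarcomere-rich cells were set against each other. Summed over the 10 genes, the tail cells held 0.554 of the culture level (0.538 to 0.571). Of the 10 genes, 1 was higher in the tail by 2-fold (Myh8, 51 UMIs against 0, at least 2.80-fold) and 3 were lower by 2-fold (Acta1, Tnnc1 and Des), where 18.1% of 10202 genes were higher and 21.5% lower. Myh8 reached 10 CPM only in the tail, so its call is no support, and its exact interval starts at 2.20. Acta1 stood at 0.247 (0.215 to 0.284), Tnnc1 at 0.201 (0.181 to 0.223) and Des at 0.362 of the culture level, whereas Tnnt1 stood at 0.869 and Ttn at 0.751. Over the whole code the tail had the larger share of sarcomere-rich cells, 36.4% against 4.32%. It also had the higher summed level in the cells that were not sarcomere-rich, 919 against 68.6 CPM (13.4-fold), while the summed CPM of the rich cells was lower in the tail. The sarcomere-rich cells were deeper in the tail (median 23584 UMIs against 7375), and the part of depth in these ratios was not tested.

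Cells with UMIs of at least 8 of the genes were then compared, a threshold chosen after the values were seen, 19 cells in the culture and 17 in the tail. Their summed level was 35040 CPM in the culture and 34777 CPM in the tail, a ratio of 0.992 (0.962 to 1.02). At this threshold 1 gene was higher in the tail (Myh8, at least 4.58-fold) and 2 were lower by 2-fold (Acta1 and Tnnc1), with 18.2% of 9617 genes higher and 24.7% lower. Here too Myh8 reached 10 CPM only in the tail, so its call is no support, and its exact interval starts at 3.56. Tnnc1 stood at 0.413 (0.372 to 0.460), Acta1 at 0.495 (0.431 to 0.570) and Des at 0.505 (0.436 to 0.585) of the culture level. Ttn was 1.40 times the culture level (1.29 to 1.52), Tnnt1 and Neb were both at 1.20, Myh3 at 1.14, Actc1 at 1.08 and Mylpf at 1.06 (0.979 to 1.14). At both thresholds the cells were chosen by detection of these same genes, so the ratios are a description. The median depth was 7350 UMIs in the culture cells and 23540 in the tail cells, and its part in the number of genes seen per cell was not tested.

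**Figure D3:**
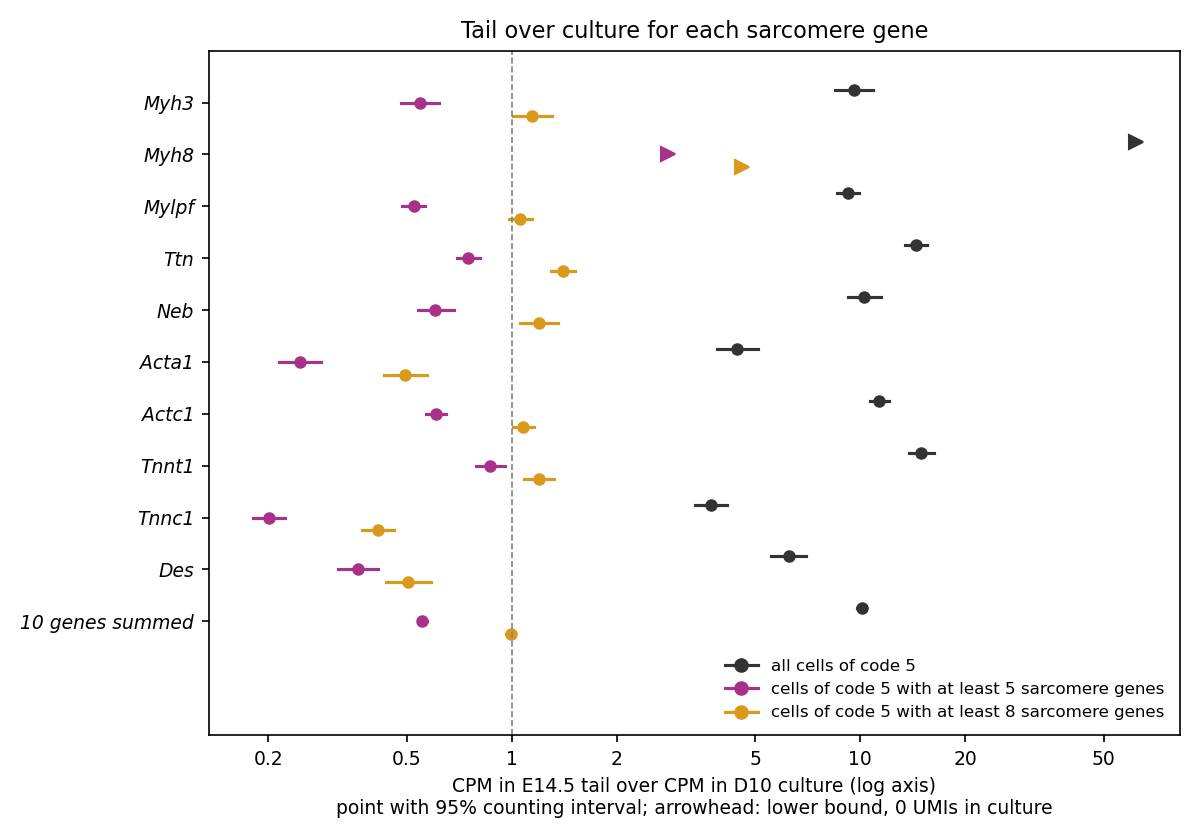
Ratio of the level in the E14.5 tail to that in the D10 culture (log axis, points with exact 95% counting intervals, arrowheads for lower bounds where the culture had 0 UMIs) for each sarcomere gene and the 10 summed, over all cells of code 5, over cells with at least 5 of the genes and over cells with at least 8. The summed ratio is 10.1 over all cells, 0.554 at 5 genes and 0.992 at 8 genes, and Acta1, Tnnc1 and Des stay to the left of 1 in both sets of sarcomere-rich cells.

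Within tail code 5 the genes differed in how early along the number of detected sarcomere genes they appeared. In the 40 cells with 1 to 4 of the genes, Tnnt1 already stood at 674 CPM, Ttn at 239 CPM and Des at 217 CPM, while Actc1 stood at 72.2 and Neb at 64.3 CPM. In the 27 cells with 5 to 7 genes Tnnt1 reached 1625 CPM, Actc1 1310.5 CPM, Ttn 1099 CPM, Des 386 CPM and Neb 328 CPM. Mylpf (59.3 CPM), Acta1 (10.6 CPM), Myh3 (7.60 CPM) and Tnnc1 (4.56 CPM) were still low in these cells. In the 17 cells with at least 8 genes Mylpf stood at 6246 CPM, Myh3 at 2429 CPM, Tnnc1 at 1788 CPM and Acta1 at 1147 CPM, beside Actc1 at 8267 CPM and Ttn at 7242 CPM. Tnnt1, Ttn and Des thus already had many UMIs in cells with few of the genes, while nearly all UMIs of Myh3, Mylpf, Acta1 and Tnnc1 came from cells with 8 or more (2738 of the 2784 UMIs of Mylpf), although Mylpf was also detected in 13 and Acta1 in 7 of the 27 cells with 5 to 7 genes. The grouping used the detection of these genes, so the sums follow in part from it.

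Regulators of muscle development, which did not enter that grouping, differed along it. Pax3, a regulator of muscle progenitors, stood at 133 CPM in tail code 5 cells with 1 to 4 sarcomere genes, at 10.6 CPM with 5 to 7 and at 6.84 CPM with at least 8. Pax7 stood at 210, 109 and 4.56 CPM over the same groups, and Myf5 at 217, 122 and 9.12 CPM. In the other direction Myod1 stood at 167, 711 and 1738 CPM, Myog at 49.9, 1207 and 4681 CPM, and Mymk, which drives myoblast fusion, at 6.56, 48.6 and 454 CPM. Among these groups, the progenitor genes were thus highest in cells with few sarcomere genes and the differentiation and fusion genes in cells with most of them. The 37 cells with no sarcomere gene had 0 UMIs of Myf5, Myod1 and Myog and carried neural genes, with Tubb3 at 1080 CPM and Stmn2 at 558 CPM. Pax3 and Pax7 were nevertheless detected in these 37 cells, where 6 of 15 myogenic regulators had UMIs and summed to 480 CPM. Summed over 8 neural markers the level was 3171 CPM in these cells, 705 CPM with 1 to 4 sarcomere genes, 161 CPM with 5 to 7 and 31.9 CPM with at least 8, and the part of neural RNA in the order above was not tested. Median depth was 7891 UMIs in those cells and 17244, 23628 and 23540 UMIs in the groups with 1 to 4, 5 to 7 and at least 8 genes, and its part in these differences was not tested.

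In the D6 PM, taken before TGFβ1, SAG and FGF2 were added, code 4 was the highest code for Ttn, Myh3, Actc1, Tnnt1, Des and Neb. Ttn stood at 122 CPM, Actc1 at 84.9 CPM, Mylpf at 71.6 CPM, Des at 70.4 CPM, Tnnt1 at 50.5 CPM and Myh3 at 27.0 CPM over its 700 cells. Its 25 sarcomere-rich cells held Des in 25, Tnnt1 and Mylpf in 23, Ttn in 22 and Actc1 in 20 cells, but Tnnc1 in 9 and Acta1 in 5. Myog was present in 23 of these 25 cells and Myf5 in 19. Cells with several sarcomere genes were therefore already present at D6, with Des, Tnnt1, Mylpf and Ttn in most of them and Acta1 and Tnnc1 in few.

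Sarcomere-rich cells of the D10 culture held 5.35 times the summed level of those of D6 PM (5.09 to 5.63). By number of genes detected, the summed level was 35040 CPM in the culture and 13876 CPM in D6 PM in cells with at least 8 genes, and 9911 and 3328 CPM in cells with 5 to 7, so that the difference was smaller within each of these strata than over both. All 9 members compared were higher in the culture by 2-fold or more, where 18.9% of 10499 genes were higher and 20.4% lower. Both sets of cells were chosen by detection of these same genes, so nothing is read from that count and the ratios are a description. The ratio was 33.9 for Acta1 (21.8 to 55.5, on 21 UMIs in D6 PM), 21.1 for Tnnc1, 8.67 for Neb, 6.13 for Mylpf, 5.83 for Tnnt1, 5.63 for Actc1, 4.47 for Myh3, 2.96 for Ttn and 2.53 for Des. Des and Ttn thus had the smallest ratios between the days in culture, and Acta1 and Tnnc1 the largest. The ratios of Acta1 and Tnnc1 depend on single cells of D6 PM. The highest cell held 14 of the 21 UMIs of Acta1, and for Tnnc1 it held 50 of 64. The D6 PM cells were the deeper ones, with a median of 15161 UMIs against 7375.

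Other genes of the sarcomere were present in the same cells. In the 24 culture cells the fast troponin C gene Tnnc2 stood at 1013 CPM, the slow troponin I gene Tnni1 at 1218 CPM, Tnnt2 at 1296 CPM, the light chain genes Myl1 and Myl4 at 975 and 2619 CPM, and the tropomyosin gene Tpm2 at 4407 CPM. In the 44 tail cells the same genes stood at 352, 399, 650, 1438, 543 and 2667 CPM, so that Myl1 was the only one of these 6 with the higher level in the tail. Of the other gene lists, 6 of 11 further thick filament genes were lower in the tail cells by 2-fold and 1 higher, 4 of 10 further thin filament genes were lower and 0 higher, and 7 of 12 Z-disc genes were lower and 0 higher. Genes of excitation and energy supply were lower in 6 of 12 and higher in 0. These lists were chosen with earlier results of these data known, and the 18.1% of all genes higher and 21.5% lower in this comparison are the background for them. The further thin filament genes summed to 12237 CPM in the culture cells and 6854 CPM in the tail cells. In cells with at least 8 sarcomere genes they summed to 14114 and 12562 CPM. The Z-disc genes summed to 1711 and 728 CPM, and to 2064 and 1599 CPM with at least 8. The part of cell choice and depth in these counts was not tested.

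Skeletal and cardiac muscle share many of these genes, and the regulators differed between the 2 libraries. Of 11 markers used for heart muscle, 7 were under 10 CPM in the sarcomere-rich cells of both libraries (Hand2, Myh6, Myl7, Nkx2-5, Nppa, Tbx5 and Tnni3), with Myl7, Nppa, Hand2 and Tbx5 at 0 UMIs in both. In the 24 culture cells 3 counts are 16.6 CPM, so lower levels are not resolved there. The other 4 were Tnnt2 and Tnni1, with the values above, Smpx at 38.8 CPM in the culture and 33.8 CPM in the tail, and Gata4 at 11.1 CPM (2 UMIs) and 0. Tnnt2, Tnni1 and Smpx are also used by skeletal muscle. Myod1 stood at 388 CPM in the culture cells and 1122 CPM in the tail cells, Pax7 at 0 and 67.5 CPM and Myf5 at 11.1 and 76.6 CPM, while Mymk stood at 365 and 211 CPM. The tail values are taken over all cells with at least 5 of the sarcomere genes. As given above, Pax7 and Myf5 were lower and Mymk and Myod1 higher in tail cells with at least 8 genes than with 5 to 7. These differences between the libraries therefore depend on the mix of cells. Of 15 myogenic regulators 6 were higher in the tail by 2-fold and 2 lower, beside 18.1% and 21.5% of all genes. Pax7 reached 10 CPM only in the tail cells, with 0 UMIs in the culture cells, so its call is no support. The sarcomere-rich cells of the culture also held the tendon regulator Scx at 980 CPM (841 to 1136) in 17 of 24 cells, where the other cells of code 5 held 99.2 CPM, codes 1, 2 and 4 held 2451 CPM and the endothelial code 11 held 640 CPM. In the tail cells Scx stood at 122 CPM, and all 9 tendon markers compared were lower there by 2-fold than in the culture cells, where 21.5% of all genes were lower. Fmod was one of the 9 and passed 10 CPM only through the culture (110.7 CPM, against 0 UMIs in the tail). Tnmd, a gene of differentiated tendon, had 0 UMIs in the sarcomere-rich cells of both libraries, and the part of tendon RNA in these results was not tested.

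Sarcomere RNA outside code 5 of the culture was mostly that of code 3. Its 1088 cells held Dppa5a at 4021 CPM and Dppa3 at 135 CPM, genes of naive pluripotent cells, beside Pou5f1 at 545 CPM. Mylpf stood there at 244 CPM (236 to 254), with a UMI in 57.7% of cells at full depth and in 37.4% (34.5 to 40.3) after thinning to 3000 UMIs. Unlike in code 5, the UMIs were spread widely, since 183 cells were needed to reach 50% of them. After thinning, Mylpf was seen in 0 of 47 cells of the endothelial code of the culture (exact interval to 7.55%) and in 1 of 66 cells of that of the tail. Against the Scx-rich codes 1, 2 and 4 of the same library, the 5 members that reached 10 CPM were higher by 2-fold (20.4% of 10279 genes were higher and 22.2% lower), but all 5 reached 10 CPM only in code 3, so their count is no support. The ratio was 63.1 for Ttn (26.8 CPM in code 3), 34.0 for Mylpf, 22.1 for Neb (12.3 CPM), 14.7 for Des (25.5 CPM) and 13.8 for Tnnt1 (62.5 CPM). Of the members under 10 CPM, the ratio was 27.9 for Myh3 (12.1 to 78.7, on 64 and 6 UMIs), 1.65 for Acta1, 1.13 for Actc1 (0.542 to 2.24) and 0.395 for Tnnc1, and Myh8 had 0 UMIs in both. In code 3 itself Myh3 stood at 5.46 CPM, while Acta1, Actc1, Tnnc1 and Myog stood at 2.64, 1.11, 1.53 and 0.256 CPM.

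Mylpf was also the only member that was high in the naive-like code of the D6 PM. In code 2 of that library (1038 cells, Dppa5a at 6302 CPM) it stood at 1139 CPM, with a UMI in 85.2% of cells and in 79.1% (76.3 to 81.7) after thinning. Against D6 PM code 1 the ratio was 64.5 (57.7 to 72.2), while of the other 2 members that reached 10 CPM, Tnnt1 was lower by 2-fold and Des was not past that fold, with 14.8% of 9853 genes higher and 16.8% lower. Tnnt1 reached 10 CPM only in code 1 and Des only in code 2. Of the members under 10 CPM, the ratio was 4.97 for Neb (2.75 to 9.54), 3.76 for Ttn (2.37 to 6.11) and 1.22 for Myh3. It was 0.568 for Acta1, 0.419 for Tnnc1 and 0.0910 for Actc1, and Myh8 had 0 UMIs in both. Against culture code 3, Mylpf was 4.66 times higher in D6 PM code 2 (4.48 to 4.85). Tnnt1 (0.0867), Ttn (0.209), Neb (0.334) and Des (0.432) were lower, so that 1 of 5 members was higher and 4 were lower by 2-fold, where 3.25% of 9219 genes were higher and 4.5% lower, although Tnnt1, Ttn and Neb reached 10 CPM only in the culture.

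The levels of Mylpf in the naive-like codes carry a limit of annotation. In RefSeq the gene overlaps Septin1, which the tables list as Sept1, and the sources used here do not state whether counting used strand, so that reads of one cannot be told from reads of the other without it. Sept1 stood at 200.1 CPM in culture code 3 and 248 CPM in D6 PM code 2, against 15.4 CPM in codes 1, 2 and 4 of the culture and 10.5 CPM in D6 PM code 1. It was thus high in the same codes as Mylpf. In the sarcomere-rich cells it stood at 11.1 CPM in the culture, 16.4 CPM in the tail and 7.93 CPM in D6 PM, where Mylpf stood at 4839 CPM in the culture. The part of Sept1 in the Mylpf counts was not tested.

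**Figure D4:**
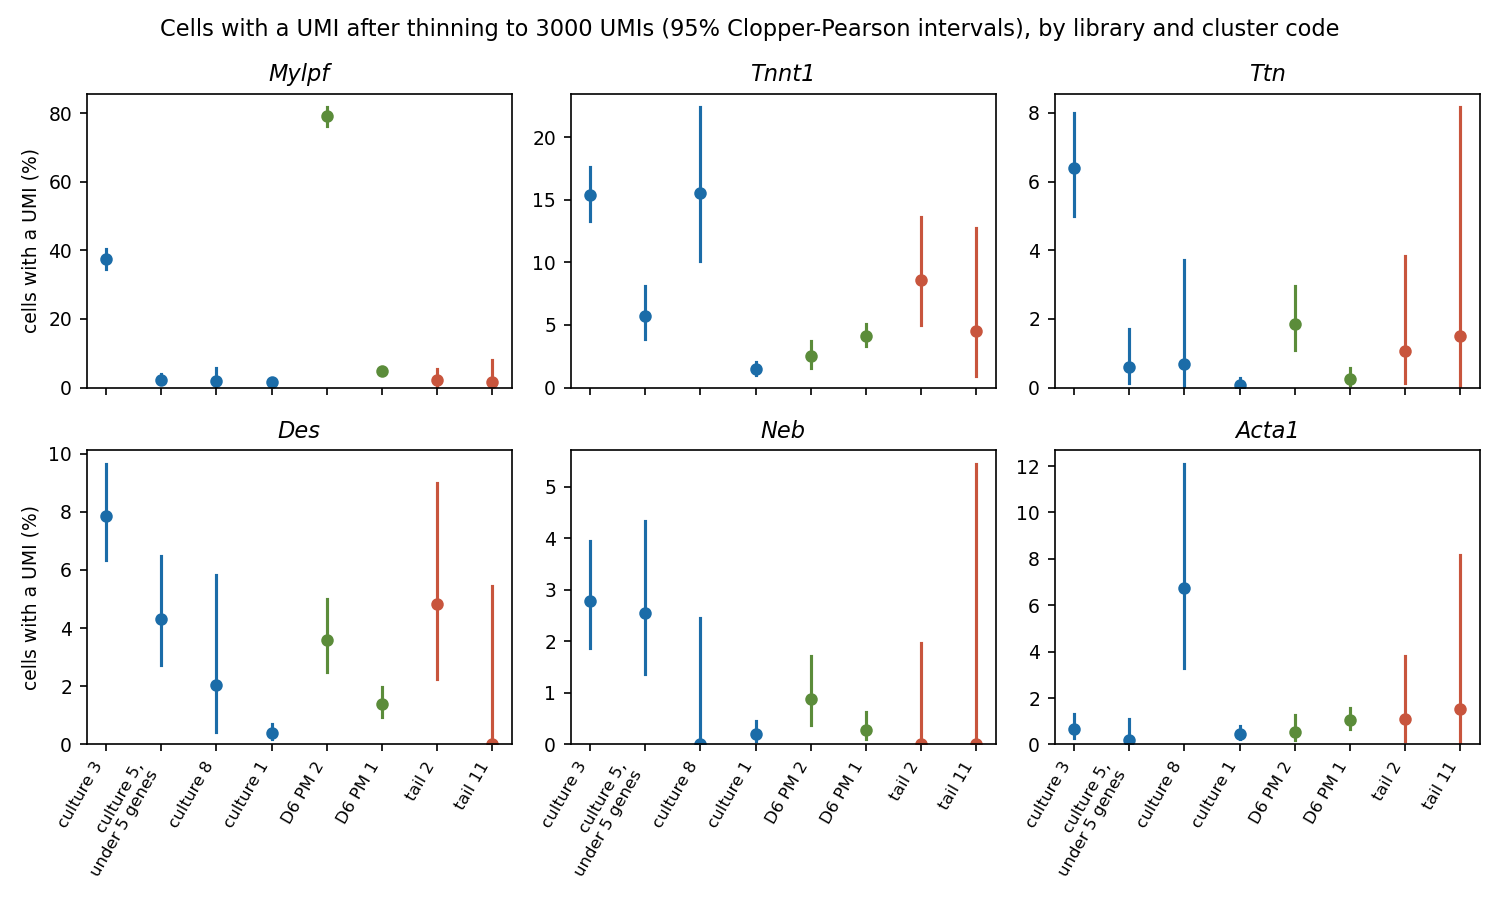
Share of cells with a UMI (percent, after thinning to 3000 UMIs, with exact 95% intervals) of Mylpf, Tnnt1, Ttn, Des, Neb and Acta1 in 8 sets of cells, including tail code 11 (endothelial) as background. Mylpf reaches 79.1% in D6 PM code 2 and 37.4% in culture code 3, while the other 5 genes stay at or under 15.4% in culture code 3.

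Single members were also found in further codes, in part above their level in culture code 5. Tnnt1 stood at 196 CPM and Acta1 at 93.6 CPM in culture code 8, where the 96 UMIs of Acta1 came from 15 of 155 cells, and Tnnc1 reached 27.3 CPM there. Tnnt1 stood at 69.9 CPM in culture code 7, and Des at 26.7 CPM in tail code 14 (17 UMIs in 4 cells). In culture code 6, a shallow code led by haemoglobin genes, Mylpf stood at 159 CPM beside Sept1 at 122 CPM, and Neb at 23.3 CPM. Among the cells of culture code 5 that were not sarcomere-rich, Tnnt1 stood at 23.4 CPM and Des at 16.9 CPM, 5.15 and 9.78 times the level of codes 1, 2 and 4, where 17% of 10006 genes were higher by 2-fold and 20.5% lower and where both reached 10 CPM only in code 5. Of the members under 10 CPM there, the ratio was 15.7 for Myh3 (6.08 to 47.8, on 20 and 6 UMIs), 14.1 for Neb, 6.16 for Ttn, 2.67 for Actc1, 1.44 for Acta1, 1.22 for Mylpf and 0.277 for Tnnc1, and Myh8 had 0 UMIs in both.

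The genes most like the sarcomere genes in pattern were named from Pearson correlations of log2(CPM + 1) over the 30 codes among 15109 genes, a description without a test because codes of 1 library share its depth and free RNA. The mean of the 10 members was most like Fitm1 (r = 0.95), Sln (0.92), Tnnc2 (0.92) and Myl1 (0.90). Ttn was most like Fitm1 (0.97), Acta1 most like Myh7 (0.82) and Tnnc1 most like Tnni1 (0.81). Among the members themselves the closest pair was Neb and Ttn (0.94), and the least alike were Mylpf and Myh8 (0.46) and Mylpf and Tnnt1 (0.52). Mylpf was instead most like Tex14 (0.93) and Mymx (0.90), which stood at 103 CPM in culture code 3 and 75.5 CPM in D6 PM code 2.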

How the data were processed

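Single-cell RNA was captured with the 10x Genomics 3′ v3 kit from 1 D10 culture, 1 E14.5 tail and 1 D6 PM library. The authors aligned and counted reads with Cell Ranger (multi-mapping reads ignored), removed cells with a high mitochondrial share (at most 7.50% remains) and the extremes of the UMI range, clustered with Seurat 3.0, and deposited raw UMI counts per gene and cell with a cluster code for each cell. The genome build of the counts and the use of strand are not given in the sources used here. Barcodes were not selected further.

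For every code, UMIs were summed per gene and divided by all UMIs of those cells (CPM), with exact 95% Poisson intervals; shares have Clopper-Pearson and ratios conditional binomial intervals. With 0 UMIs, 3 counts were used as the limit. Features were called at 2-fold among genes with 10 CPM or more in either group, and cells were thinned to 3000 UMIs where depths differ. Scrublet (expected rate 6%, in Scanpy 1.11.5) called 116, 9 and 81 doublets, which were left in except in an alternative. The genes named are the 10 members, the listed sarcomere, regulator and cell type genes, and those most alike in pattern by correlation. The members and lists were chosen with earlier results of these data known. Python 3.11.15, NumPy 2.4.6, SciPy 1.17.1 and Matplotlib 3.10.9 were used, and the counting and interval functions were tested on simulated data.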

Additional observations from a re-analysis of the deposited data

How the results depend on the processing

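The summed ratio of tail to culture code 5, 10.1 over all UMIs, was 5.35 with cells thinned to 3000 UMIs and 4.69 as the mean over cells of each cell's CPM, both of which weigh deep cells less. In alternatives chosen after seeing the data it was 13.4 without the cells with at least 5 of the genes and 10.6 without the cell with most sarcomere UMIs in each library. The share of sarcomere-rich cells in tail code 5, 24.8%, was 13.2% at 1000 UMIs and, in alternatives added later, 36.4% at full depth and 15.6% at a threshold of 6 genes. The genes higher by 2-fold, 2087, numbered 976 at 4-fold and 723 at 50 CPM, and those lower, 1438, numbered 563 and 643. For single members, 18 of 27 alternative values moved less than their counting interval, 9 moved (all under thinning, Acta1 from 4.44 to 1.95 and Tnnc1 from 3.73 to 1.64) and 0 reversed. No paired analysis was possible because each group is 1 library. Depth limits the shares: the tail was the deepest library, and a difference between single libraries cannot be told apart from one between the conditions.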
